A study of Mus musculus with 12 samples.

Results

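Interferon-stimulated genes are the genes that cells switch on when they sense interferon. The 39 followed here were chosen by name, as well-known members of this program, with earlier results of these data known. All 39 were found among the 22630 genes measured in 12 mouse tumors. RNA was sequenced from whole subcutaneous tumors grown from KCip53-1, a mouse pancreatic cancer line in which doxycycline (dox) turns on a p53 R270H transgene through a transactivator. The hosts were immunocompromised NSG mice, 8 to 10 weeks old, which lack T, B and NK cells, and each tumor was started from 500000 cells. The 4 no-dox tumors grew in mice never given dox. By the study's text its KCip53 lines were cultured with dox, so the cells of all 3 groups had met dox before injection. The 4 plus-dox tumors were exposed to 0.2 g/l dox in water with 5% sucrose for 36 days. The 4 off-dox tumors had, by their labels, 33 days of the same dox and then 3 days without it. The study's text instead times the removal by when tumors could be felt, so the stage at removal is uncertain. All 3 groups carry the transgene. The line is a single one, sorted on the dsRed reporter from a primary tumor of a KCip53 mouse, and each mouse bore 2 tumors without the labels saying which tumors shared a mouse. The p-values treat the tumors as independent, measure only the spread between these samples and would be too small wherever mice contributed both of their tumors.

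Type I interferons are sensed by a receptor that activates the kinases Jak1 and Tyk2. These phosphorylate Stat2, which joins Irf9 in the complex ISGF3. ISGF3 binds the interferon-stimulated response element (ISRE) in the promoters of target genes. Type II interferon, the product of Ifng, acts on genes through the gamma-activated sequence (GAS). The products of the target genes sense viral nucleic acid, block viral replication, feed the signal forward through Irf7 or damp it through Usp18, and attract lymphocytes. In tumors, cancer cells and macrophages can both express these genes.

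The promoter is the part of these genes that the interferon complexes read, so the windows that hold the ISRE core are shown first. The core was searched as GAAANNGAAA on either strand of 300 bases, from 250 before to 50 after the annotated start, and the GAS core as TTCNNNGAA. RefSeq promoters on GRCm38.p6 were at hand for 30 of the 39 genes. An ISRE core was present in 16 of these 30 genes and in 16 of their 36 promoters (44.4%), against 1131 of all 32851 promoters (3.44%). A GAS core was present in 8 of the 30 genes and in 8 of the 36 promoters (22.2%), against 8.3% of all promoters. A match describes these letters only and is no evidence of binding. The 8 windows below are from members that the results turn on or that differ in how they varied among tumors, with every ISRE core in capitals, 12 bases on either side, written 5′ to 3′ along the gene. Where the capitals begin with TTTC, the core lies on the other strand.
Isg15: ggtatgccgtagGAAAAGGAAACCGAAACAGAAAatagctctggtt
Ifit1: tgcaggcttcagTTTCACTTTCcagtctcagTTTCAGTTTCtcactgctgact
Bst2: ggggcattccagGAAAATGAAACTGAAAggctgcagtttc
Irgm1: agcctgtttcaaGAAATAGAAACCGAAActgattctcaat
Stat2: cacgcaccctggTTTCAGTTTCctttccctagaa
Rsad2: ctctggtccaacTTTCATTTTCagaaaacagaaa
Cxcl10: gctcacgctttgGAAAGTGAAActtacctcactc
Gbp2: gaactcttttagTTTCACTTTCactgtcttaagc
On GRCm38.p6 these windows lie at chr4:156200863-156200908 (minus strand) for Isg15, chr19:34640773-34640825 (plus strand) for Ifit1, chr8:71537575-71537614 (minus strand) for Bst2 and chr11:48871423-48871462 (minus strand) for Irgm1. The others lie at chr10:128270264-128270297 (plus strand) for Stat2, chr12:26456551-26456584 (minus strand) for Rsad2, chr5:92349081-92349114 (minus strand) for Cxcl10 and chr3:142620592-142620625 (plus strand) for Gbp2. Isg15 held 3 overlapping cores, the highest number among the 30 genes, and Ifit1, Bst2 and Irgm1 held 2 each. The promoter windows of Irf7, Irf9 and Cxcl9 held neither core.

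**Figure D1:**
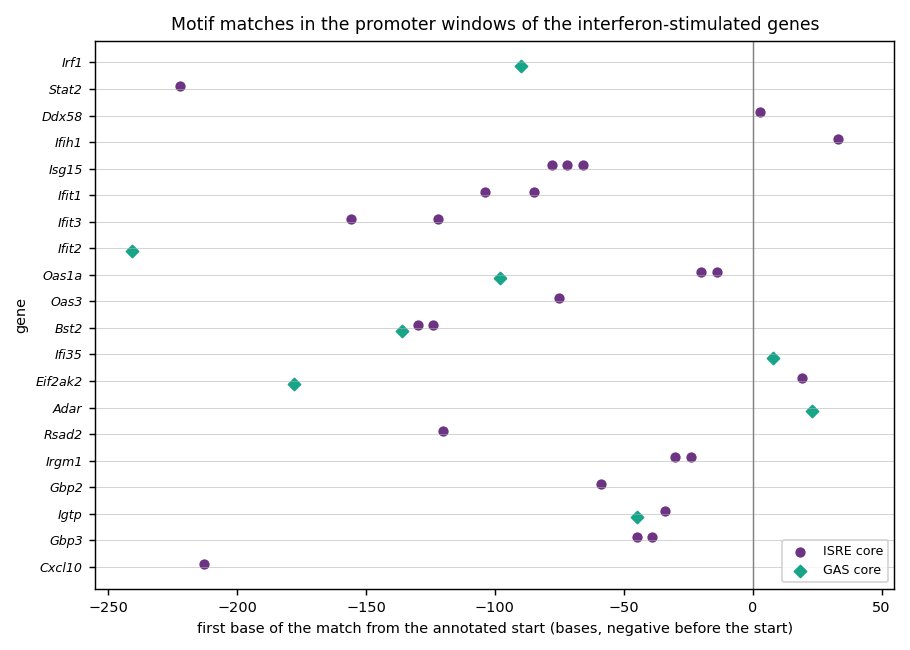
Position of each match to the ISRE core (circles) and the GAS core (diamonds) in the promoter windows of the interferon-stimulated genes, in bases from the annotated start. Of the 24 ISRE cores, 18 began within the 150 bases before the start.

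Sequencing depth was 19845923 to 33137609 reads counted on genes per tumor. The share of mapped reads that fell on genes was 88.4% to 89.4% for no-dox, 82.2% to 87.1% for plus-dox and 81.1% to 85.8% for off-dox tumors, so no tumor of another group shared the no-dox range. Trp53 ranged from 40.1 to 57.4 RPKM across no-dox, 40.4 to 56.0 across plus-dox and 41.6 to 45.4 across off-dox tumors. Its reads here do not separate the transgene from the gene of the host or any copy left in the line. The study reports that KCip53 lines it examined by PCR held only mutant p53 DNA and had lost the wild-type sequence. Of 9 epithelial markers of the labelled line, Krt8 and Krt18 stayed at 318 RPKM or more in every tumor, while the lowest values of others were 7.76 (Epcam), 0.578 (Esrp1) and 0.105 RPKM (Cldn7). Plus-dox tumor 2 stood apart, with the lowest mean log2 CPM of the epithelial markers (5.01) and the highest of 8 endothelial markers (5.33). Off-dox tumor 4 came next on both lists but close to other tumors, at 6.37 against 6.61 in off-dox tumor 3 and at 4.57 against 4.55 in plus-dox tumor 3. Fold changes without these 2 tumors are given for the members described in every tumor. These 2 were also the lowest pair for 31 of the 39 members, so such values describe dependence on them and test nothing.

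None of the 39 genes passed the limits used for a difference between groups, and the tumors within each group differed widely. RPKM (reads per kilobase of exon, scaled to all mapped reads) gives levels that can be compared between genes. On this scale 3 members averaged 100 RPKM or more over the 12 tumors, 24 averaged from 10 to under 100 RPKM and 12 averaged under 10 RPKM. Bst2 was highest with a mean of 175 RPKM, followed by Isg15 with 109 and Irf7 with 102 RPKM, and Cxcl9 was lowest with 1.05 RPKM. The fewest counts for any member in any tumor were 39, for Cxcl9. The highest tumor exceeded the lowest by a median of 3.29-fold, from 1.68-fold for Eif2ak2 to 6.6-fold for Cmpk2. In log2 CPM (counts scaled to library size), the median within-group SD of the members was 0.50, against 0.25 for the 14548 genes averaging more than 0.25 RPKM.

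The tumors, rather than the groups, shared an order across the genes. No-dox tumor 2 was the highest of the 12 tumors for 31 of the 39 members, and it was the highest of the no-dox group for all 39. Plus-dox tumor 2 was the lowest of the 12 for 24 members and off-dox tumor 4 for 10. These 2 tumors were the lowest pair for 31 members, and both lay below the median of the 10 other tumors for 38. Relative to each gene's mean over the 12 tumors, the median log2 CPM difference of the members was −0.92 in plus-dox tumor 2 and −0.82 in off-dox tumor 4, and the same median over all genes tested was −0.01 in each. The median difference was 0.59 in no-dox tumor 2, 0.45 in off-dox tumor 1 and 0.41 in plus-dox tumor 1, and it ran from −0.25 to 0.17 in the 7 remaining tumors. Each group held a tumor well above the mean, while both tumors at the low end came from groups whose mice were given dox. The lowest no-dox tumor, tumor 3, stood at −0.25 and was the lowest of its group for 33 members.

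**Figure D2:**
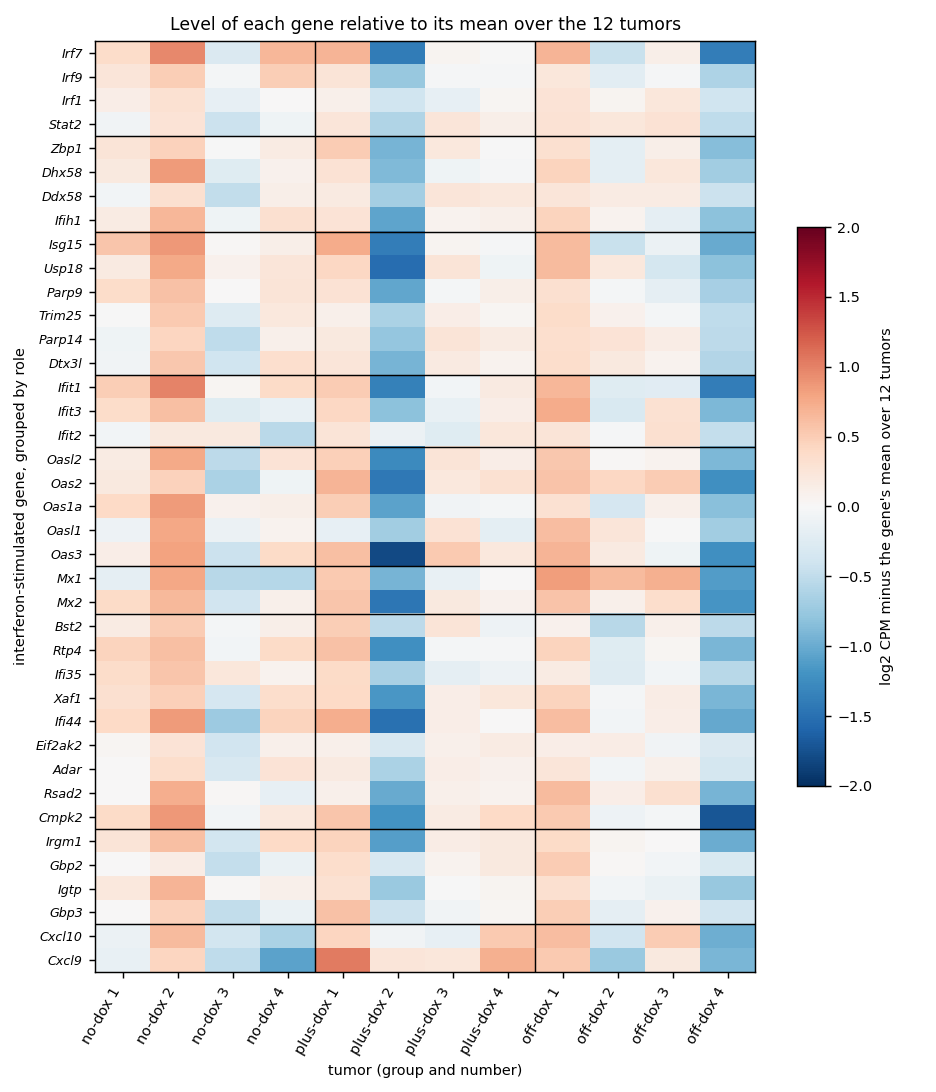
Log2 CPM of each of the 39 genes minus its mean over the 12 tumors, with genes in rows by role and tumors in columns by group (red above, blue below the mean). Plus-dox 2 and off-dox 4 are blue across nearly all rows and no-dox 2 is red across all 39, while the chemokine rows at the bottom differ in plus-dox 2.

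Because the 3 comparisons share tumors, their values are given side by side. Between plus-dox and no-dox tumors, 0 of the 39 genes passed an edgeR adjusted p under 0.1 with a change over 1.5-fold, and 0% of all 17561 genes tested did. With an unadjusted edgeR p under 0.05 there were 0 members, against 13.7% of all genes. Between off-dox and no-dox tumors 0 of 39 members passed, while 1.34% of all genes did. There 1 member, Ifi35, had an unadjusted p under 0.05, against 20.4% of all genes. For off-dox against plus-dox the counts were 0 of 39 members by the limits and 0 with an unadjusted p under 0.05, against 0% and 3.06% of all genes. DESeq2 with and without moderated fold changes and limma-voom also called 0 members in all 3 comparisons. Of all 17561 genes these fits called 90, 128 and 112 for plus-dox against no-dox. They called 395, 615 and 641 for off-dox against no-dox, and 4, 6 and 0 for off-dox against plus-dox. The members with an unadjusted p under 0.05 then numbered 1 each by both DESeq2 fits and 2 by limma-voom for plus-dox, 1, 1 and 5 for off-dox against no-dox, and 0, 0 and 1 for off-dox against plus-dox. The share of all genes at that unadjusted p is not given for these fits, so these member counts have no background beside them. No member had 2 groups without overlap in log2 CPM in any of the 3 comparisons, whereas 8.86%, 11.5% and 1.4% of all genes did, in the order given. For members described in every tumor, the fold changes from all 12 tumors carry their standard error (SE) below. A p that misses the limit does not show that levels were equal.

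The median log2 fold change over the 39 members was −0.23 for plus-dox and −0.22 for off-dox against no-dox, and −0.02 for off-dox against plus-dox, beside 0.01, 0.01 and −0.00051 over all genes tested. Of the members, 31 had a negative fold change for plus-dox and 29 for off-dox against no-dox (79.5% and 74.4%, against 48.6% and 49.3% of all genes). These medians depended strongly on single tumors. Without plus-dox tumor 2 the median for plus-dox against no-dox was −0.00059, and without off-dox tumor 4 that for off-dox against no-dox was −0.0042. Leaving out no-dox tumor 2 gave −0.07 and −0.0032. With plus-dox tumor 2 and off-dox tumor 4 both left out, 20 of 39 members were negative in each comparison with no-dox, and 0 were called. Of all genes, 0% were then called for plus-dox and 2.72% for off-dox. An unadjusted edgeR p under 0.05 was found for 1 and 2 members, against 12.3% and 22.7% of all genes. Because plus-dox tumor 2 and off-dox tumor 4 were the lowest tumors for most members, leaving them out raises the fold changes by choice and tests nothing.

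**Figure D3:**
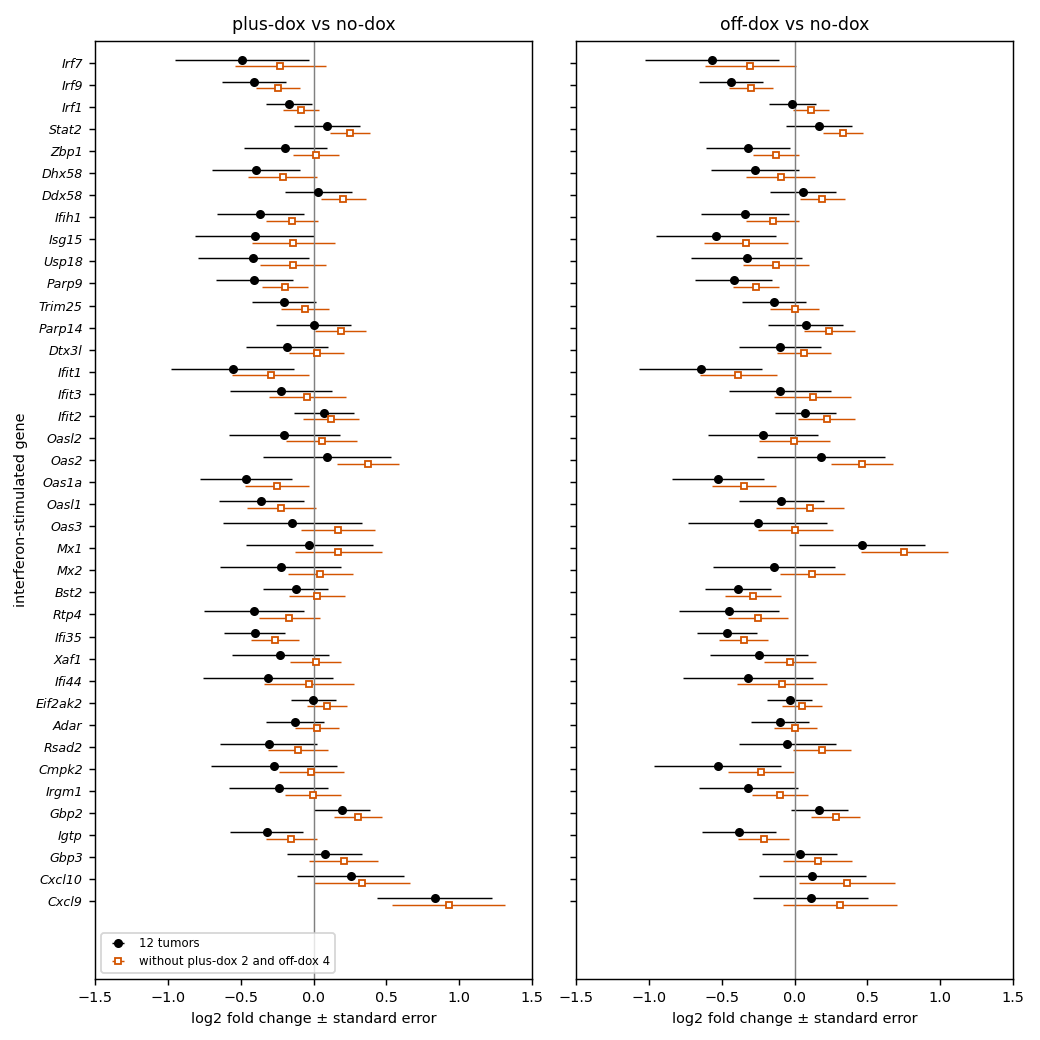
Log2 fold change with its standard error for each gene, plus-dox (left) and off-dox (right) against no-dox, from all 12 tumors (filled) and without plus-dox tumor 2 and off-dox tumor 4 (open). Most filled points lie left of 0, and the open points lie to their right, with 20 of 39 below 0 in each panel. The tumors left out were the lowest for most genes, which by itself moves the open points to the right.

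The transcription factors were led by Irf7 (chr7:148449088-148452300 of mm9, minus strand), the factor that amplifies interferon production. Irf7 stood at 122, 184, 72.0 and 141 RPKM in no-dox tumors 1 to 4, 150.2, 34.2, 88.9 and 92.7 RPKM in plus-dox tumors 1 to 4, and 145, 65.9, 99.0 and 33.1 RPKM in off-dox tumors 1 to 4. No-dox tumor 2 was highest, plus-dox tumor 2 and off-dox tumor 4 were lowest, and the 3 groups overlapped. Means were 129.7 ± 46.4 RPKM for no-dox, 91.5 ± 47.4 for plus-dox and 85.8 ± 48.0 for off-dox (SD, n = 4 tumors per group). Compared with no-dox, this is a log2 fold change of −0.50 (SE 0.46, adjusted p = 0.62 by edgeR) for plus-dox and −0.57 (SE 0.46, adjusted p = 0.5 by edgeR) for off-dox. Without plus-dox tumor 2 and off-dox tumor 4 these were −0.23 and −0.30. Irf9, the DNA-binding part of ISGF3, had log2 fold changes of −0.41 (SE 0.22, adjusted p = 0.42 by edgeR) and −0.44 (SE 0.22, adjusted p = 0.28 by edgeR). Stat2, the other ISGF3 part among the members, had 0.09 (SE 0.22, adjusted p = 0.86 by edgeR) and 0.17 (SE 0.22, adjusted p = 0.7 by edgeR). Irf1, a factor that the type II response induces, averaged 22.7 RPKM with fold changes of −0.17 and −0.02 on the log2 scale. Its within-group SD of 0.25 in log2 CPM compared with 0.78 for Irf7.

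Of the sensors of viral nucleic acid, Zbp1 (chr2:173032114-173044423 of mm9, minus strand), which binds Z-form nucleic acid, had the highest level. Zbp1 reached 22.6, 25.8, 17.5 and 19.7 RPKM in no-dox tumors 1 to 4, 26.4, 9.41, 19.9 and 18.5 RPKM in plus-dox tumors 1 to 4, and 22.6, 15.7, 19.6 and 9.54 RPKM in off-dox tumors 1 to 4. Plus-dox tumor 2 and off-dox tumor 4 were the lowest, at similar levels, and the groups overlapped. Means were 21.4 ± 3.63 RPKM for no-dox, 18.6 ± 7.0 for plus-dox and 16.9 ± 5.64 for off-dox (SD, n = 4 tumors per group). Zbp1 thus had a log2 fold change of −0.19 (SE 0.29, adjusted p = 0.76 by edgeR) for plus-dox against no-dox and −0.32 (SE 0.29, adjusted p = 0.55 by edgeR) for off-dox against no-dox. These were 0.02 and −0.13 when plus-dox tumor 2 and off-dox tumor 4 were left out. The RNA sensors Ddx58 (RIG-I), Ifih1 (MDA5) and Dhx58 (LGP2) ranged over 3.71 to 18.3 RPKM in the 12 tumors. Against no-dox their log2 fold changes were 0.03, −0.37 and −0.40 in plus-dox and 0.06, −0.34 and −0.27 in off-dox tumors, in that order. The smallest adjusted p of the 4 sensors over both comparisons was 0.54.

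Isg15 encodes a ubiquitin-like protein that is attached to other proteins, and Isg15 (chr4:155573533-155574927 of mm9, minus strand) carries the 3 ISRE cores shown above. Isg15 was at 151, 187, 97.7 and 105 RPKM in no-dox tumors 1 to 4, 169.8, 37.4, 96.7 and 100.4 RPKM in plus-dox tumors 1 to 4, and 153, 71.8, 91.4 and 46.5 RPKM in off-dox tumors 1 to 4. Plus-dox tumor 2 was the lowest of all, 5-fold below no-dox tumor 2, and the 3 groups overlapped. Means were 135 ± 41.8 RPKM for no-dox, 101 ± 54.2 for plus-dox and 90.6 ± 45.4 for off-dox (SD, n = 4 tumors per group). Against no-dox, Isg15 had a log2 fold change of −0.41 (SE 0.41, adjusted p = 0.65 by edgeR) with dox and −0.54 (SE 0.41, adjusted p = 0.47 by edgeR) after its removal. With plus-dox tumor 2 and off-dox tumor 4 set aside, the values were −0.14 and −0.33. Usp18, the protease that removes Isg15 and damps the receptor, averaged 26.3 RPKM with log2 fold changes of −0.41 and −0.33. Trim25, a ubiquitin ligase that activates RIG-I, averaged 23.5 RPKM with −0.20 and −0.14. The ADP-ribosylation partners Parp9 and Dtx3l, which work as a complex, and Parp14 lie within 100 kb of each other on chromosome 16. Their log2 fold changes were −0.41, −0.18 and −0.00 in plus-dox and −0.42, −0.10 and 0.07 in off-dox tumors, and none passed.

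The IFIT proteins bind viral RNA and block its translation. Ifit1 (chr19:34715379-34724499 of mm9, plus strand) was the highest of the 3. Ifit1 ran at 26.7, 37.6, 18.1 and 23.1 RPKM in no-dox tumors 1 to 4, 26.7, 7.0, 16.5 and 21.2 RPKM in plus-dox tumors 1 to 4, and 28.8, 15.2, 15.5 and 6.61 RPKM in off-dox tumors 1 to 4. Off-dox tumor 4 and plus-dox tumor 2 were lowest and no-dox tumor 2 highest, with the groups overlapping. Means were 26.4 ± 8.27 RPKM for no-dox, 17.9 ± 8.35 for plus-dox and 16.5 ± 9.16 for off-dox (SD, n = 4 tumors per group). Compared with no-dox, this is a log2 fold change of −0.55 (SE 0.42, adjusted p = 0.54 by edgeR) for plus-dox and −0.65 (SE 0.42, adjusted p = 0.4 by edgeR) for off-dox. Leaving out plus-dox tumor 2 and off-dox tumor 4 gave −0.30 and −0.39. Ifit2 departed from this order in plus-dox tumor 2: its range was 4.10 to 7.67 RPKM, its lowest tumors were no-dox tumor 4 and, at 4.16 RPKM, off-dox tumor 4, and plus-dox tumor 2 had 5.57 RPKM, near its mean of 6.23. Ifit3 followed the order of Ifit1 at its low end, with 5.00 RPKM in plus-dox tumor 2 and 4.53 in off-dox tumor 4. Reads that match a near-identical copy may be split or lost for Ifit3, since the treatment of such reads is not stated.

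The OAS enzymes make an oligoadenylate that activates RNA decay, and the related Oasl2 (chr5:115346943-115362254 of mm9, plus strand) had the highest level of this family. Oasl2 had 35.1, 53.0, 20.5 and 35.4 RPKM in no-dox tumors 1 to 4, 43.5, 12.4, 34.2 and 34.1 RPKM in plus-dox tumors 1 to 4, and 43.9, 30.3, 31.8 and 15.4 RPKM in off-dox tumors 1 to 4. The lowest were plus-dox tumor 2 and off-dox tumor 4, and no-dox tumor 3 followed. Means were 36.0 ± 13.3 RPKM for no-dox, 31.0 ± 13.2 for plus-dox and 30.4 ± 11.7 for off-dox (SD, n = 4 tumors per group). Oasl2 thus had a log2 fold change of −0.20 (SE 0.38, adjusted p = 0.81 by edgeR) for plus-dox against no-dox and −0.22 (SE 0.38, adjusted p = 0.77 by edgeR) for off-dox against no-dox. These were 0.06 and −0.0032 when plus-dox tumor 2 and off-dox tumor 4 were left out. Oas3, the longest OAS enzyme, had the largest within-group spread of the 39 members, an SD of 0.86 in log2 CPM, with 1.92 RPKM in plus-dox tumor 2 and 12.3 in no-dox tumor 2. Oas2 had log2 fold changes of 0.09 and 0.18, Oas1a −0.47 and −0.53, Oasl1 −0.36 and −0.09. Oas1a has close copies beside it in the genome, so its value is uncertain.

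The Mx GTPases trap viral nucleoproteins. Mx1 (chr16:97668642-97684513 of mm9, minus strand) and Mx2 lie 73174 bases apart and had similar mean levels of 5.90 and 5.74 RPKM. Mx1 was measured at 4.89, 9.43, 3.52 and 3.5 RPKM in no-dox tumors 1 to 4, 7.85, 2.75, 4.56 and 5.54 RPKM in plus-dox tumors 1 to 4, and 9.56, 8.16, 8.72 and 2.33 RPKM in off-dox tumors 1 to 4. Off-dox tumors 1 to 3 all exceeded 8 RPKM, a level that 1 no-dox tumor and 0 plus-dox tumors reached, while off-dox tumor 4 was the lowest of the 12. Means were 5.33 ± 2.81 RPKM for no-dox, 5.18 ± 2.12 for plus-dox and 7.19 ± 3.30 for off-dox (SD, n = 4 tumors per group). Against no-dox, Mx1 had a log2 fold change of −0.03 (SE 0.43, adjusted p = 0.98 by edgeR) with dox and 0.46 (SE 0.43, adjusted p = 0.56 by edgeR) after its removal. Without plus-dox tumor 2 and off-dox tumor 4, the log2 fold changes of Mx1 were 0.17 and 0.76. Leaving out off-dox tumor 4, its lowest tumor, raises the off-dox value by choice and tests nothing. Mx2 had log2 fold changes of −0.23 for plus-dox and −0.14 for off-dox tumors.

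Among the other effectors, Bst2 (chr8:74058161-74061336 of mm9, minus strand), also called tetherin, which holds budding virus on the cell surface, had the highest level of all 39 members. Bst2 stood at 198, 249, 161 and 180.2 RPKM in no-dox tumors 1 to 4, 244, 117, 192 and 164 RPKM in plus-dox tumors 1 to 4, and 181, 115, 182 and 113 RPKM in off-dox tumors 1 to 4. Off-dox tumors 2 and 4 and plus-dox tumor 2 were the 3 lowest. Means were 197 ± 38.0 RPKM for no-dox, 179 ± 53.3 for plus-dox and 148 ± 39.1 for off-dox (SD, n = 4 tumors per group). Compared with no-dox, this is a log2 fold change of −0.12 (SE 0.23, adjusted p = 0.81 by edgeR) for plus-dox and −0.39 (SE 0.23, adjusted p = 0.35 by edgeR) for off-dox. With plus-dox tumor 2 and off-dox tumor 4 set aside, the values were 0.03 and −0.29. Ifi35 (chr11:101309726-101320015 of mm9, plus strand) was the 1 member with an unadjusted p under 0.05. Ifi35 had 46.8, 52.9, 39.3 and 35.5 RPKM in no-dox tumors 1 to 4, 46.6, 21.9, 29.1 and 33.4 RPKM in plus-dox tumors 1 to 4, and 39, 28.7, 33.4 and 22.6 RPKM in off-dox tumors 1 to 4. Its no-dox tumors were all above 35 RPKM, and plus-dox tumor 1 and off-dox tumor 1 lay within the no-dox range. Means were 43.6 ± 7.74 RPKM for no-dox, 32.8 ± 10.4 for plus-dox and 30.9 ± 6.98 for off-dox (SD, n = 4 tumors per group). Ifi35 thus had a log2 fold change of −0.41 (SE 0.21, adjusted p = 0.4 by edgeR) for plus-dox against no-dox and −0.47 (SE 0.21, adjusted p = 0.23 by edgeR) for off-dox against no-dox. Leaving out plus-dox tumor 2 and off-dox tumor 4 gave −0.26 and −0.35. With all tumors the unadjusted edgeR p for off-dox was 0.044, and the exact permutation test of log2 CPM gave p = 0.057 over 70 arrangements, whose smallest possible p is 0.029. This was the smallest exact p of the 117 tests of members.

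The 7 other effectors had no call. Rtp4, a chaperone-like antiviral protein, averaged 40.7 RPKM, and Xaf1, a partner of apoptosis inhibitors, averaged 18.1 RPKM. Ifi44 averaged 16.6 RPKM, with a range of 5.24 to 28.1 RPKM. Rsad2 (viperin) and Cmpk2, both involved in making antiviral nucleotides, lie 12762 bases apart and averaged 5.17 and 4.49 RPKM. Cmpk2 had the greatest ratio of highest to lowest tumor among the 39, 6.6-fold, over 1.16 to 7.66 RPKM, and off-dox tumor 4 was its lowest. Eif2ak2 (PKR), a kinase that stops translation, and Adar, which edits double-stranded RNA, varied least of this group, with within-group SDs of 0.24 and 0.32 in log2 CPM. Their log2 fold changes were −0.00 and −0.13 for plus-dox and −0.03 and −0.10 for off-dox tumors.

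The GBP and IRG GTPases attack vacuoles of intracellular pathogens and respond strongly to type II interferon. Irgm1 (chr11:48678751-48684848 of mm9, minus strand) led this group. Irgm1 had 47.0, 58.8, 28.5 and 48.2 RPKM in no-dox tumors 1 to 4, 52.5, 17.2, 39.3 and 44.2 RPKM in plus-dox tumors 1 to 4, and 49.1, 38.6, 38.0 and 17.9 RPKM in off-dox tumors 1 to 4. Plus-dox tumor 2 and off-dox tumor 4 were below every other tumor, and the 10 others ranged from 28.5 to 58.8 RPKM. Means were 45.6 ± 12.6 RPKM for no-dox, 38.3 ± 15.1 for plus-dox and 35.9 ± 13.0 for off-dox (SD, n = 4 tumors per group). Against no-dox, Irgm1 had a log2 fold change of −0.24 (SE 0.34, adjusted p = 0.74 by edgeR) with dox and −0.32 (SE 0.34, adjusted p = 0.61 by edgeR) after its removal. These were −0.0048 and −0.10 when plus-dox tumor 2 and off-dox tumor 4 were left out. Gbp2 and Gbp3, neighbours on chromosome 3, had their lowest tumor in the no-dox group, 8.33 and 6.01 RPKM in no-dox tumor 3. Gbp2 had log2 fold changes of 0.19 and 0.17, Gbp3 0.07 and 0.04, and Igtp −0.32 and −0.38, none passing the test.

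Cxcl9 and Cxcl10 encode chemokines that attract T and NK cells through Cxcr3. Cxcl10 (chr5:92775667-92777880 of mm9, minus strand), the higher of the pair, overlaps the gene Art3, and these unstranded reads cannot be assigned to a strand. Cxcl10 was at 5.84, 9.86, 4.58 and 3.79 RPKM in no-dox tumors 1 to 4, 8.51, 5.78, 5.17 and 9.10 RPKM in plus-dox tumors 1 to 4, and 9.48, 4.61, 8.66 and 2.91 RPKM in off-dox tumors 1 to 4. Here plus-dox tumor 2 lay inside the range of the other tumors, while off-dox tumor 4 was lowest. Means were 6.02 ± 2.69 RPKM for no-dox, 7.14 ± 1.95 for plus-dox and 6.41 ± 3.16 for off-dox (SD, n = 4 tumors per group). Compared with no-dox, this is a log2 fold change of 0.26 (SE 0.37, adjusted p = 0.75 by edgeR) for plus-dox and 0.12 (SE 0.37, adjusted p = 0.88 by edgeR) for off-dox. With plus-dox tumor 2 and off-dox tumor 4 set aside, the values were 0.33 and 0.36. Cxcl9 was at 0.893, 1.34, 0.646 and 0.427 RPKM in no-dox tumors 1 to 4, 2.03, 1.11, 1.06 and 1.63 RPKM in plus-dox tumors 1 to 4, and 1.37, 0.555, 1.08 and 0.471 RPKM in off-dox tumors 1 to 4. Of the plus-dox tumors, all 4 exceeded 1 RPKM, as did 1 no-dox and 2 off-dox tumors. The log2 fold change of Cxcl9 was 0.83 (SE 0.40, adjusted p = 0.38 by edgeR) for plus-dox and 0.11 (SE 0.40, adjusted p = 0.89 by edgeR) for off-dox tumors against no-dox. Leaving out plus-dox tumor 2 and off-dox tumor 4 gave 0.93 and 0.31. For plus-dox with all tumors the exact permutation test gave p = 0.086. Cxcl9 was described in each tumor after its values were seen.

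**Figure D4:**
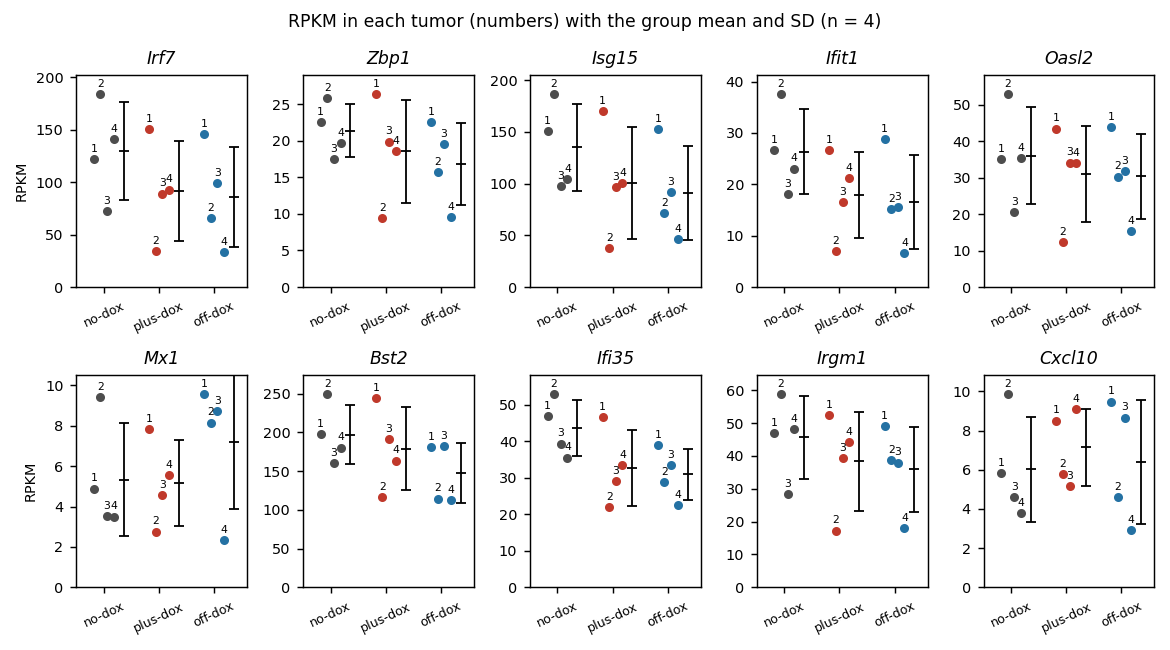
RPKM of 10 interferon-stimulated genes in each tumor (points, numbered by tumor) with the mean and SD of each group (n = 4). The groups overlap in every panel, and plus-dox 2 and off-dox 4 lie at or near the bottom except for plus-dox 2 in Cxcl10.

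The interferon genes themselves were barely detected. Of 19 interferon genes looked up, 10 had 0 counts in all 12 tumors, among them 9 Ifna genes. The Ifna genes are close copies of each other, and reads that match several of them may have been dropped, since their treatment is not stated. Ifng had 1 count in 1 tumor. At this depth a count of 0 allows up to 3 counts, which for Ifng corresponds to 0.067 to 0.104 RPKM depending on the tumor, counting error only. Ifnb1 had 13.5 counts over 9 tumors and at most 0.139 RPKM, and the highest value of any interferon gene was 0.201 RPKM, for Ifne. Expression of interferon below these limits was not detectable.

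The receptor genes were well expressed. Ifnar1 and Ifnar2, the type I receptor chains, ranged over 13.8 to 17.1 and 11.9 to 15.5 RPKM, and their log2 fold changes were within 0.10 of 0 in both comparisons with no-dox. Ifngr1, the ligand-binding chain of the type II receptor, averaged 153 RPKM for no-dox, 101 for plus-dox and 106 for off-dox tumors, with log2 fold changes of −0.60 and −0.51. Its edgeR adjusted p for off-dox was 0.29. Plus-dox tumor 2 and off-dox tumor 4 were again lowest, at 52.6 and 62.0 RPKM. The other plus-dox and off-dox tumors had 105 to 136 RPKM, and the no-dox tumors 128 to 169 RPKM. Ifngr2 had log2 fold changes of −0.25 and −0.32, with an edgeR adjusted p of 0.10 for off-dox that missed the limit. Of 6 receptor genes, 0 were called in either direction in any of the 3 comparisons, and 2 and 1 had an unadjusted p under 0.05 for plus-dox and off-dox against no-dox, all lower, beside 13.7% and 20.4% of all genes. Of 5 kinase and STAT genes 0 were called. Tyk2, at 6.9 RPKM in no-dox and 9.16 RPKM in off-dox tumors, had a log2 fold change of 0.44 with an edgeR adjusted p of 0.087, which is under the limit on p but not over 1.5-fold. Of 5 negative regulators, such as Socs1, and 13 genes of sensing upstream of interferon, 0 were called. In the latter list Irf8 and Ikbke, with log2 fold changes of 0.50 and 0.47 between off-dox and no-dox, had edgeR adjusted p-values of 0.083 and 0.087 but stayed under 1.5-fold.

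A further list of 20 interferon-stimulated genes outside the 39 was read the same way, while Tgtp1, also on the list, was not analysed here. None of the 20 was called in the 3 comparisons, and for off-dox against no-dox 4 were higher and 4 lower with an unadjusted p under 0.05, beside 20.4% of all genes in either direction. Their median log2 fold change against no-dox was −0.07 for plus-dox and −0.11 for off-dox tumors. For 11 of the 20 the 2 lowest tumors were again plus-dox tumor 2 and off-dox tumor 4, and for 4 the highest was no-dox tumor 2. Trim30a and Gbp7 had log2 fold changes of 0.55 and 0.39 between off-dox and no-dox tumors, with edgeR adjusted p-values of 0.097 and 0.092, under 1.5-fold. Ifitm3, which blocks entry of viruses, had −0.86 with an edgeR adjusted p of 0.14.

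Cell type markers were set beside the order of the tumors. The RNA came from whole tumors, so fewer cells of a type and less RNA per cell cannot be told apart. Of 9 epithelial genes, which mark the injected cells, plus-dox tumor 2 and off-dox tumor 4 were the 2 lowest tumors for 5. Epcam was at 7.76 RPKM in plus-dox tumor 2 and 40.9 in off-dox tumor 4, with 72.3 to 388 RPKM in the 10 others, and no-dox tumor 2 was highest. Krt8 and Krt18 did not show this, with 532 and 608 RPKM in plus-dox tumor 2. The summed RPKM of the 9 genes was 2290 to 3050 for no-dox, 1360 to 2010 for plus-dox and 1050 to 2620 for off-dox tumors. Of the endothelial genes, 7 of 8 were highest in plus-dox tumor 2 and 0 in off-dox tumor 4, among them Cdh5 at 57.7 RPKM against 5.71 to 16.5 in the 11 other tumors. The summed RPKM of the 8 was 32.8 to 50.9, 43.2 to 136 and 37.8 to 59.9 in no-dox, plus-dox and off-dox tumors. Of 11 macrophage genes 1 had these 2 tumors as its lowest pair, and the summed RPKM was 2340 to 3380, 2630 to 3160 and 2390 to 4240. Of 9 fibroblast genes 6 were highest in plus-dox tumor 2, and the summed RPKM was 1210 to 2150, 1710 to 3210 and 1400 to 1610. The 12 genes of T, NK and B cells summed to 3.37 to 5.35, 6.23 to 8.19 and 5.56 to 13.0 RPKM. The sums were 23.4 to 35.2, 34.1 to 57.5 and 24.0 to 50.0 RPKM for 6 neutrophil genes, 10.6 to 16.1, 9.77 to 15.3 and 13.1 to 15.3 for 8 dendritic cell genes, and 8.99 to 162, 132 to 412 and 9.76 to 1150 for 7 skeletal muscle genes. Of these marker lists, the called genes were Csf3r and Cxcr2 of neutrophils, Cd4 of the T, NK and B cell list and Actn3 of muscle. All were higher in off-dox than in no-dox tumors. These were 2 of 6, 1 of 12 and 1 of 7 genes of their lists, beside 1.34% of all genes called in that comparison. With a replicate block 0 of all genes were called there. Cd4 ranged from 1.985 to 5.135 RPKM, while Cd3d, Cd3e and Cd3g reached at most 0.321, 0.149 and 0.537 RPKM. Gzma and Ncr1 of the same list reached 4.693 and 2.051 RPKM. All 12 genes of that list had a positive fold change for off-dox against no-dox, while 49.3% of all genes had a negative one. Of the 12, 5 had an unadjusted edgeR p under 0.05, beside 20.4% of all genes. Which cells gave the reads of these genes was not tested. No listed marker found in the files was at 0 in all 12 tumors. The part of these cell types in the levels of the interferon-stimulated genes was not tested.

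As a description, each member's log2 CPM was correlated with the mean log2 CPM of the 9 epithelial genes over the 12 tumors. Pearson's r had a median of 0.77 and ran from −0.01 for Cxcl9 to 0.93 for Usp18, and it was positive for 38 of 39. In permutation tests adjusted over all 156 relations computed, the adjusted p was under 0.05 for 30 members by Pearson's r and for 7 by Spearman's rho. Only members were correlated with the marker lists, so no share over all genes stands beside these counts or those below. Whether such relations are particular to the members was not tested. For Usp18, r was 0.93 (permutation p = 3e-05, adjusted 0.0031) and rho 0.82 (permutation p = 0.0016, adjusted 0.044). For Irf7, r was 0.76 (permutation p = 0.0045, adjusted 0.018) and rho 0.59 (permutation p = 0.05, adjusted 0.15). For Ifit2 and Cxcl9, r was 0.13 and −0.01 and rho −0.03 and 0.08, with adjusted permutation p-values of 0.72 or more for all 4. Plus-dox tumor 2 and off-dox tumor 4 lay farthest from the median of the epithelial score, and without them the median r was 0.28 with a range of −0.41 to 0.74, and 9 of 39 stayed above 0.5, so the relation of most members rested on these 2 tumors. Usp18 had an r of 0.74 without them and Irf7 0.33. Taken as differences from the group means over all 12 tumors, plus-dox tumor 2 and off-dox tumor 4 included, the median r was 0.78. With the endothelial list the median r was −0.77, and −0.32 without the same 2 tumors, with 29 members at an adjusted permutation p under 0.05 by r and 8 by rho. With the macrophage list it was 0.35, and with the fibroblast list −0.48, with 3 and 0 members at an adjusted permutation p under 0.05 by r. Without the 2 tumors farthest from the median of each score, the medians were 0.34 (macrophage) and −0.19 (fibroblast). Then r stayed positive for 39 of 39 members with the macrophage list, against 34 with the epithelial list. For Ifit2 the macrophage r was 0.77 (permutation p = 0.00088, adjusted 0.012), with rho 0.73 (permutation p = 0.0084, adjusted 0.059). Without off-dox tumors 3 and 4 that r was 0.80.

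**Figure D5:**
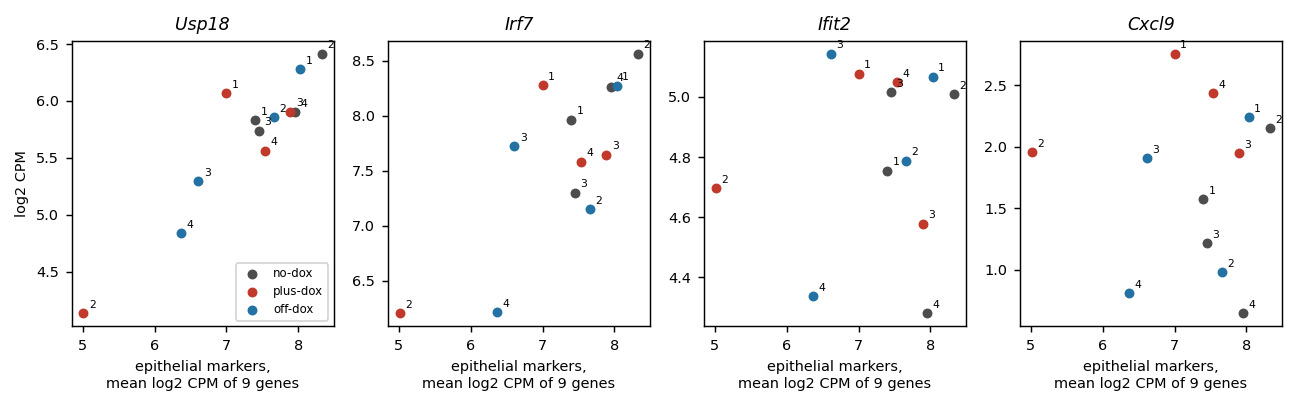
Log2 CPM of Usp18, Irf7, Ifit2 and Cxcl9 against the mean log2 CPM of 9 epithelial genes, 1 point per tumor, numbered and colored by group. Usp18 and Irf7 are lowest in plus-dox 2 and off-dox 4, the tumors with the lowest epithelial score, while for Ifit2 and Cxcl9 only off-dox 4 is near the bottom and plus-dox 2 lies among the others.

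Position was the other shared feature. The 39 genes lie on 14 chromosomes, and 18 of them lie within 100 kb of another member, in the Ifit, Mx, Oas, Oasl, Rsad2 and Cmpk2, Parp9, Parp14 and Dtx3l, Gbp, and Cxcl9 and Cxcl10 neighbourhoods. Neighbours did not always vary alike. Ifit2 and Ifit3 lie 6994 bases apart, and their within-group SDs were 0.33 and 0.57 in log2 CPM. Members with and without an ISRE core lay at both ends of the spread. Gbp2 and Eif2ak2, which hold a core, had SDs of 0.30 and 0.24. Isg15 and Ifit1, which hold more, had 0.69 and 0.71, and Irf7, with no core in the window, had 0.78.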

How the data were processed

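PolyA RNA of 12 tumors was sequenced as unstranded 50-bp reads. Per the labels and the methods of the study, the authors mapped reads to mm9 with TopHat 1.4.1 and Bowtie 0.12.8 and counted them with bedtools 2.16.2 over the unambiguous exonic span of each condensed RefSeq gene. The deposited expected counts are these base-wise counts in reads, not normalized and partly fractional. The deposited RPKM values were computed by the authors per kilobase of exon and per total of mapped reads. How reads with several positions were treated is not given in the sources used here, so members with close copies are uncertain. The files hold 0 columns of other series.

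Counts were rounded to whole numbers. The 17561 genes whose counts over the 12 tumors added up to 10 or more were fitted in edgeR 4.0.16 with TMM factors and the quasi-likelihood test, 1 fit for the 3 groups without covariates, and p-values were Benjamini-Hochberg adjusted over all of them. A call followed the limits of the study: adjusted p below 0.1, more than 1.5-fold, more than 250 bp of exon and an average above 0.25 RPKM over the 8 tumors of a comparison. Log2 CPM used a prior count of 2. Single genes were compared by two-sided exact permutation tests, and correlations by 100000 permutations. The fit was tested on simulated counts. Replicate libraries differed beyond sampling noise in all 18 pairs within groups, with a chi-square of 21.9 or more per gene. Coordinates of genes are those of mm9, with starts moved by 1 base to count from 1, and promoters are RefSeq windows on GRCm38.p6. Work was done in R 4.3.3 and Python 3.11.15 (scipy 1.17.1).

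The 39 members, the role groups and the pathway and marker lists were chosen with earlier results of these data known. Values in every tumor are given for members that were called, had an unadjusted edgeR p under 0.05, had groups without overlap, or had the highest mean RPKM of their role group. Alternatives were DESeq2 1.42.0 with and without moderated fold changes, limma-voom (limma 3.58.1), RLE normalization, other filters, fits of 8 tumors, a replicate block, a limit of 0.05 on the adjusted p, each tumor left out, and plus-dox tumor 2 with off-dox tumor 4 left out. The authors' enrichment tests and metabolite data were not used here.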

Additional observations from a re-analysis of the deposited data

Results flagged for a closer look

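In 7 of 117 sets of 4 tumors (39 genes in 3 groups, 5.98%), 1 tumor lay so far from its nearest neighbour that the gap took up most of the range of the group (0.84 to 0.918 of it), past the limit of Dixon's test. Chance alone gives about 1 in 20 sets where sets are independent. These sets share the same tumors and the genes vary together, so that rate cannot be compared with the share found. Plus-dox tumor 2 was the low tumor in 4 of these. Ddx58 was at 5.58 RPKM there, with 10.1 to 10.8 RPKM in the 3 other plus-dox tumors. Rsad2 was at 2.41 RPKM, with 4.95 to 5.42 in the others, Parp14 at 7.61 RPKM, with 14.9 to 15.6, and Trim25 at 14.7 RPKM, with 23.9 to 25.4. Off-dox tumor 4 was the low tumor in 2, with Stat2 at 10.8 RPKM against 18.8 to 19.8 and Oas2 at 9.69 RPKM against 31.4 to 35.5 in the 3 other off-dox tumors. In the no-dox group Oasl1 was set apart upward, at 21.7 RPKM in tumor 2 against 10.9 to 12.5 in the others.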

How the results depend on the processing

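The count of members called was 0 in all 3 comparisons and stayed 0 under every alternative run, leave-one-out fits (0 to 0) and an adjusted p under 0.05 included. The smallest adjusted p of a member under any of them was 0.098, for Ifi35 in off-dox against no-dox by limma-voom, at a log2 fold change under 1.5-fold. For the 10 members that the rule named, which leaves out Cxcl9, no alternative changed a call among the 220 fold changes per comparison or the 20 exact tests per comparison. The median log2 fold change of the members ran from −0.39 to −0.00059 for plus-dox and from −0.44 to −0.0032 for off-dox against no-dox when each tumor was left out in turn, the extremes coming without plus-dox tumors 1 and 2 and without off-dox tumor 1 and no-dox tumor 2, in that order. Equal replicate numbers did not pair the tumors. The deviations of same-numbered tumors from their group means correlated by −0.088 on average over 12 pairs, and 2 of 12 tumors correlated best with their own number. With the replicate block 0 members were called and the genes called between off-dox and no-dox went from 235 to 0. Over all genes that count was 395 and 615 by DESeq2 with and without moderation, 641 by limma-voom, 333 and 365 with stricter filters, 122 without one, 3 in the fit of 8 tumors, and 0 to 789 with a tumor left out. For plus-dox against no-dox, DESeq2 called 90 and 128 and limma-voom 112 genes, against 0 by edgeR, and the cause was not tested. With 4 tumors a group the median standard error of the members was 0.30 on the log2 scale, and fold changes as large as 0.83 (Cxcl9) and −0.65 (Ifit1) did not pass.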
